A study of Mus musculus with 24 samples.

Results

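Among 21 thymic lymphomas of female B6C3F1 mice, 13 did not show raised expression of chromosome 15, and these 13 are described here: 10 with an Ikzf1 mutation (TL2, TL4, TL7, TL9, TL10, TL13, TL14, TL15, TL16 and TL17) and 3 without (TL19, TL21 and TL31). They were chosen by measured values, the expression of the genes of chromosome 15, so differences on that chromosome are given as a description with no test. TL12, which carries a mutation, and 7 unmutated lymphomas, TL18, TL20, TL22, TL30, TL32, TL34 and TL35, were left out, because their chromosome 15 was raised. All mice, per the labels, had received whole-body carbon ions, 1.6 Gy in each of 4 weekly doses, from an age of 4 to 5 weeks. The 24 libraries also include 3 of normal thymus, whose titles are marked 7W and whose labels carry the same treatment line. The libraries were made from poly(A) RNA of single-cell suspensions, and all carry 1 batch date. Mutation status comes from the names of the columns in the authors' filtered tables. No source used here gives the kind of Ikzf1 mutation in a lymphoma, nor whether any 2 lymphomas came from the same mouse, and the p-values cover only the spread between samples.

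Ikzf1 encodes Ikaros, a zinc-finger protein that binds DNA, recruits chromatin-remodelling complexes and is a tumour suppressor of the mouse thymus. Its relatives Helios (Ikzf2), Aiolos (Ikzf3), Eos (Ikzf4) and Pegasus (Ikzf5) share the zinc fingers through which the proteins pair with each other. During T-cell development Ikaros restrains Notch target genes and signalling through the pre-T-cell receptor, and loss of its function is a recurrent event in radiation-induced thymic lymphoma. Gain of chromosome 15, which carries Myc, is another event known in mouse T-cell lymphoma.

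The mutated libraries held 18420153 to 36559710 counts in genes, and the unmutated ones 15769846 (TL19), 14998988 (TL21) and 30842853 (TL31). Levels are given as CPM, counts scaled to library size with TMM factors. The median log2 ratio to thymus over 379 genes of chromosome 15 lay between -0.10 and 0.21 in the mutated lymphomas and was -0.02 in TL19, -0.06 in TL21 and 0.13 in TL31. Just inside the limit stood TL9 at 0.21, and just outside it stood TL20 at 0.41. On the other whole chromosomes, 2 medians of these 13 lymphomas were 0.3 or more from 0: chromosome 2 in TL16, at 0.34, and chromosome 19 in TL7, at 0.40. Over the first 10 Mb of chromosome 11, just before Ikzf1, the median was -0.92 to -0.74 in TL4, TL10, TL13 and TL17 of the mutated set and -0.80 in TL31 of the unmutated set, and between -0.08 and 0.09 in the other 8. Lymphomas of both sets therefore stood at either level there.

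**Figure D1:**
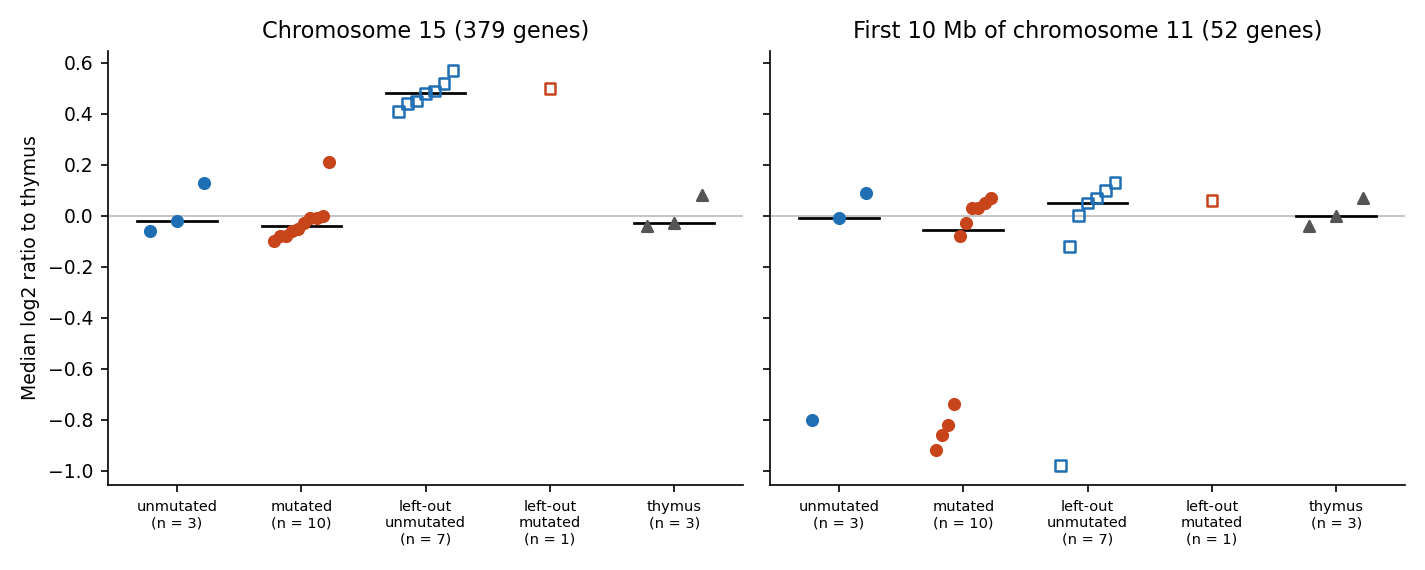
Median log2 ratio to the mean of normal thymus over the genes of chromosome 15 (left) and over the first 10 Mb of chromosome 11 (right), 1 point per library, with black lines at group medians. The 13 compared lymphomas (filled circles) lie between -0.10 and 0.21 on chromosome 15 and the 8 left-out ones (open squares) between 0.41 and 0.57; on chromosome 11, 4 mutated and 1 unmutated compared lymphomas lie at -0.74 or below.

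By nearest neighbours, the sets did not form separate clusters. Over the 500 most variable genes outside chromosome 15, none of the 3 unmutated lymphomas had another unmutated one as its nearest neighbour: TL19 and TL31 were nearest to TL4 and TL21 was nearest to TL13, both mutated. With 3 unmutated lymphomas, most possible neighbours were mutated, so this says little about separation. The first principal component (27.2% of the variance) set TL7 apart, at 55.6, while the other 12 lymphomas lay between -18.3 and 19.7. On the second (12.7%) the 3 unmutated lymphomas lay together, at -17.6 to -11.4. TL15 was below them, at -22.9, and the other mutated lymphomas were above them, at -8.1 to 19.7. For some results that rest on TL7, values without it are given below.

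Of 12015 genes tested outside chromosome 15, 0 (0%) passed an adjusted p of 0.05 in edgeR's quasi-likelihood test of mutated against unmutated lymphomas. At an unadjusted p under 0.05 there were 590 genes (4.91%), 323 higher in the mutated set (2.69%) and 267 lower (2.22%). A cut at 0.05 gives about that total share when no gene differs. The smallest adjusted p was 0.211, for Hivep2. Limma-voom also called 0 genes and DESeq2 called 26, of which 22 were higher and 4 lower. In 45 genes all mutated values lay above all unmutated ones (0.375%), and in 39 they lay below (0.325%). Sets this small separate at about these shares with no true difference, so a lack of overlap alone does not set a gene apart. In counts simulated for this design edgeR recovered 34% of the genes changed 2-fold and 69% of those changed 4-fold, so a miss does not show that a gene's level was alike in both sets. All the differences named below for this comparison failed that test unless a sentence says otherwise, and are given as values.

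**Figure D2:**
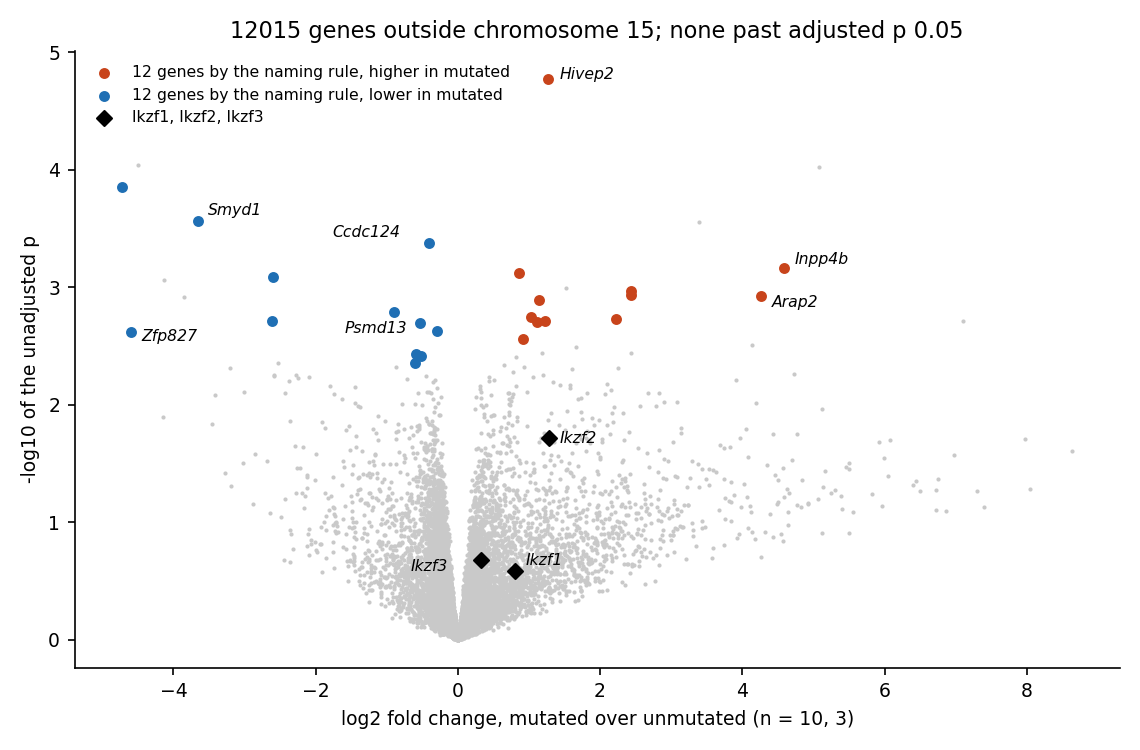
Log2 fold change of mutated over unmutated lymphomas (10 and 3 libraries; x axis) against -log10 of the unadjusted p (y axis) for 12015 genes outside chromosome 15, with the 12 genes the naming rule gives in each direction and 3 Ikaros family genes marked. Hivep2 stands highest, at p = 1.69e-05, and none of the genes passes an adjusted p of 0.05.

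Ikzf1 itself (chromosome 11, 11684962 to 11772930 on GRCm38) was at 537 CPM in TL19, 543 in TL21 and 431 in TL31. The mutated lymphomas ranged from 79.5 CPM in TL2 to 1889 in TL15, with a median of 767, so they lay on both sides of the unmutated ones. The log2 difference was 0.81 ± 0.69 (SE; 95% confidence interval -0.67 to 2.29; adjusted p = 0.94). The SD was 590 CPM in the mutated set and 63.3 CPM in the unmutated set. Thymus was at 953 ± 114 CPM (SD, n = 3). A count per gene does not distinguish a truncated or internally deleted transcript from a full one. In the 4 mutated lymphomas with low expression over the first 10 Mb of chromosome 11, Ikzf1 was at 613 (TL4), 707 (TL10), 279 (TL13) and 331 CPM (TL17), and TL31, the unmutated one, was at 431.

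Ikzf2, which encodes Helios (chromosome 1, 69531207 to 69687351), was at 213 CPM in TL19, 154 in TL21 and 49.4 in TL31, and in the mutated lymphomas at 116 (TL15) to 617 (TL7) with a median of 291. In 9 of the 10 mutated lymphomas the level was above all 3 unmutated ones, and TL15 lay below TL19 and TL21. The log2 difference was 1.28 ± 0.48 (SE; interval 0.24 to 2.31; unadjusted p = 0.0192, adjusted p = 0.924). Normal thymus was at 167 ± 17.96 CPM, and the 7 left-out unmutated lymphomas at 39.3 to 216. Ikzf3, which encodes Aiolos, was at 264, 238 and 338 CPM in TL19, TL21 and TL31 and at 174 to 546 CPM in the mutated set, with overlapping groups and a log2 difference of 0.33 ± 0.25 (adjusted p = 0.927).

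Ikzf4 had a log2 difference of 0.79 ± 0.63 at levels of 0.85 to 12.5 CPM in the mutated and 1.64 to 3.52 CPM in the unmutated lymphomas. Ikzf5 varied little, with 64.3, 67.4 and 64.8 CPM in the unmutated lymphomas, 52.6 to 86.3 CPM in the mutated ones and a log2 difference of 0.10 ± 0.13. All 5 family members were fitted higher in the mutated set, with a median log2 difference of 0.79 beside -0.001 over all tested genes, and 1 of the 5, Ikzf2, had an unadjusted p under 0.05. That median was 0.50 without TL16 and 0.36 with limma-voom. Per length, on the deposited TPM scale, the order of mean levels in the mutated set was Ikzf1 (357 ± 241 TPM, SD, n = 10), Ikzf3 (133 ± 33.95), Ikzf2 (82.7 ± 36.6), Ikzf5 (39.3 ± 6.10) and Ikzf4 (1.52 ± 1.02). In the unmutated set Ikzf1 was at 202 ± 24.7 TPM (n = 3) and Ikzf3 at 105 ± 19.95, while Ikzf5 at 36.4 ± 1.54 and Ikzf2 at 33.8 ± 19.8 did not differ beyond their spread.

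**Figure D3:**
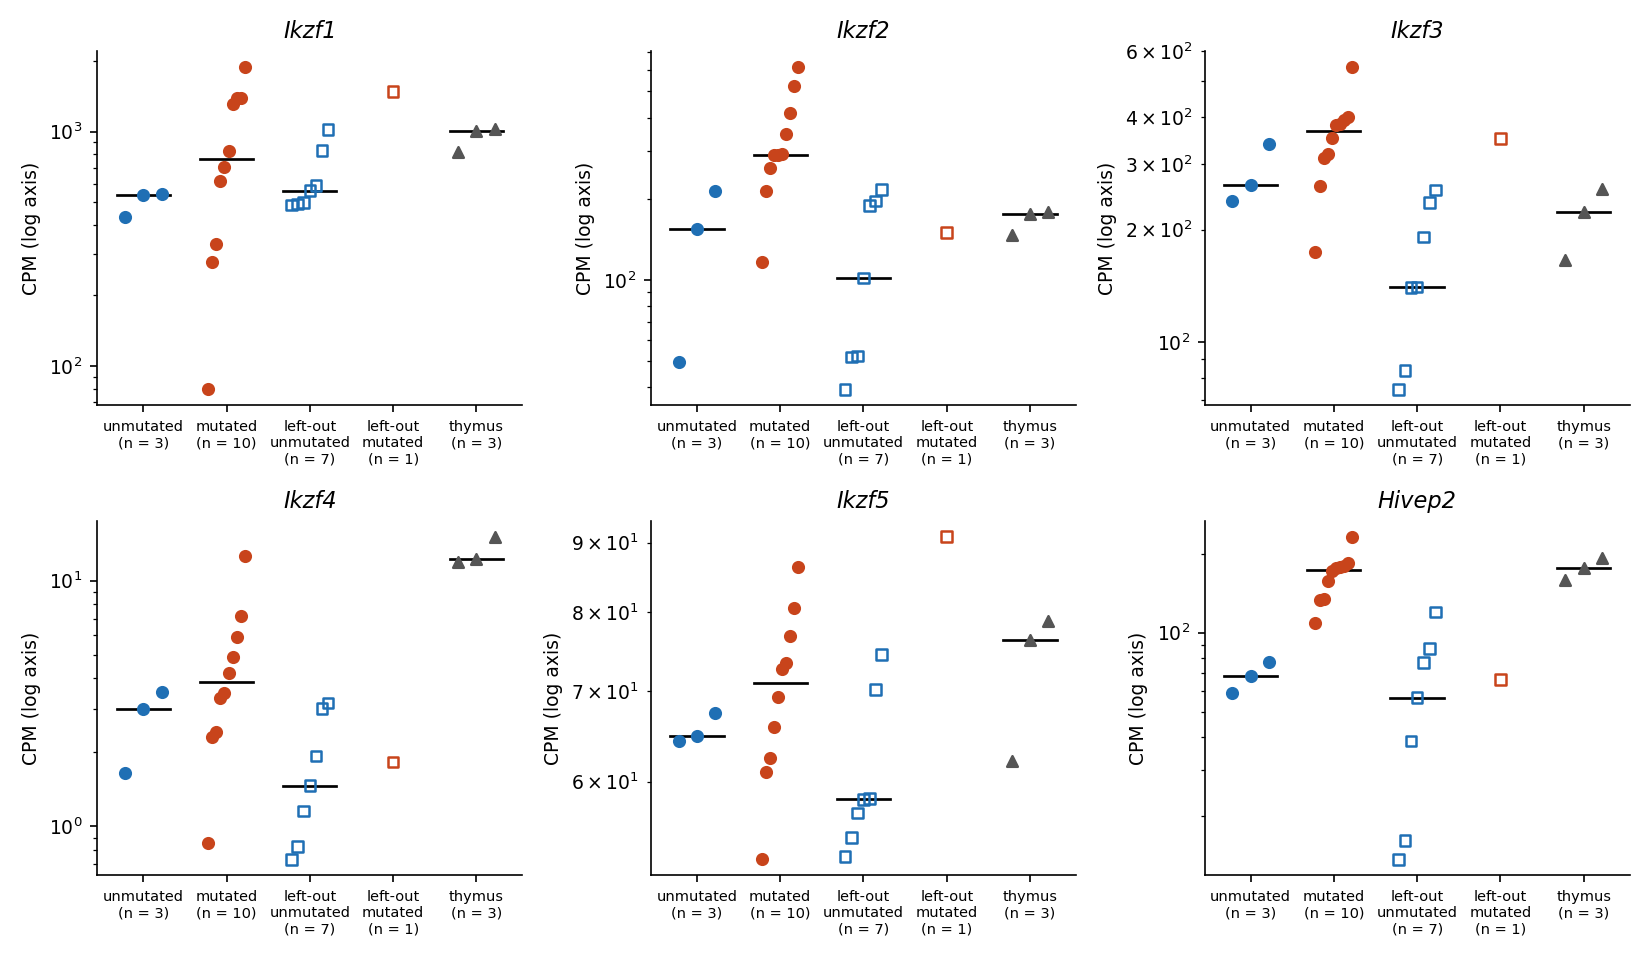
CPM on log axes of the 5 Ikaros family genes and of Hivep2 in every library, with black lines at group medians. Ikzf1 spreads from 79.5 to 1889 CPM in the mutated lymphomas around the 431 to 543 CPM of the unmutated ones, and Hivep2 is the only gene of the 6 in which the 2 compared groups do not overlap.

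Hivep2 (chromosome 10, 13961609 to 14151378), a zinc-finger transcription factor that binds NF-kB-like sites and acts in thymocyte selection, had the smallest p of all genes. It was at 58.9 CPM in TL19, 68.6 in TL21 and 77.6 in TL31, and at 109 to 232 CPM in the mutated lymphomas, with a median of 174. All 10 mutated lymphomas lay above all 3 unmutated ones. The log2 difference was 1.28 ± 0.20 (SE; interval 0.85 to 1.70; adjusted p = 0.211), and it passed with DESeq2 and when TL15 was left out (adjusted p = 0.0410). Thymus, at 176 ± 16.5 CPM, was at the level of the mutated lymphomas. The left-out unmutated lymphomas were at 13.7 to 120 CPM, and the left-out mutated TL12, at 66.4 CPM, was at the level of the unmutated ones.

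The other 11 genes with the smallest p among those higher in the mutated set include regulators of signalling. Inpp4b, a phosphatase of phosphatidylinositol 3,4-bisphosphate, was at 2.78, 1.38 and 0.39 CPM in TL19, TL21 and TL31 and at 5.48 to 86.9 CPM in the mutated lymphomas, a log2 difference of 4.58 ± 1.05 (adjusted p = 0.924). Its groups did not overlap, and thymus was at 84.7 ± 16.2 CPM. Arap2, a GTPase-activating protein for Arf, was at 4.20, 2.95 and 0.20 CPM against 3.97 to 99.5 CPM, a log2 difference of 4.27 ± 1.04, with 1 mutated lymphoma inside the unmutated range. Pde2a, a phosphodiesterase of cyclic nucleotides, was at 5.98, 4.07 and 2.00 CPM against 6.41 to 44.7 CPM (2.43 ± 0.59), without overlap. The 7 left-out unmutated lymphomas were at 5.19 to 40.3 CPM for Pde2a and at 1.40 to 54.3 CPM for Arap2. TL12, the left-out mutated one, was at 1.91 and 34.4 CPM. Art2b, an ADP-ribosyltransferase of the T-cell surface, was at 3.64, 7.61 and 3.37 CPM against 5.76 to 53.7 CPM (2.43 ± 0.59).

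Smaller differences with tight groups were seen for Kdm7a, a histone demethylase, at 28.0, 32.9 and 35.6 CPM in the unmutated lymphomas and 39.7 to 84.6 CPM in the mutated ones (log2 difference 0.86 ± 0.20). Nedd9, a docking protein of integrin signalling, was at 32.1, 25.1 and 43.4 CPM against 51.4 to 121 CPM (1.14 ± 0.28), and Pglyrp2, a peptidoglycan recognition protein, was at 30.5, 21.4 and 34.8 CPM against 44.1 to 116 CPM (1.11 ± 0.29). In none of these 3 did the groups overlap. Trib2, a pseudokinase and oncogene of T-cell leukaemia, was at 106, 74.5 and 171 CPM against 159 to 349 CPM (1.03 ± 0.27), where TL31 reached into the mutated range. Cd82, a tetraspanin, differed by 1.23 ± 0.32 and Smad3, a signal transducer of TGF-beta, by 0.92 ± 0.25, both with overlapping groups.

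Genes lower in the mutated set split into those where 1 or 2 unmutated lymphomas were high and those with small, even differences. TL19 alone was high in Ccdc62 (86.6 CPM, against 4.13 and 6.88 in the other two and 2.63 to 8.80 in the mutated set), in Nqo1, a quinone reductase (13.6 CPM, against 0.98 and 0.59, and 0.42 to 2.01 in the mutated set), and in Zfp827 (16.4 CPM, against 0.13 and 0, and 0 to 0.56 in the mutated set). Without TL19 the log2 differences of Nqo1 and Zfp827 were 0.08 and 1.92, so their direction depended on that lymphoma. Smyd1, a histone methyltransferase, was at 20.3 CPM in TL21 and 34.9 in TL31 but at 0.19 in TL19, against 0.65 to 3.58 CPM in the mutated set (-3.66 ± 0.75), and it passed the threshold when TL19 was left out (adjusted p = 0.0113). The left-out mutated TL12 was at 60.9 CPM, and the left-out unmutated lymphomas were at 0.29 to 38.2 CPM with a median of 3.12. Between all mutated and all unmutated lymphomas the log2 difference of Smyd1 was -0.68 ± 0.99.

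The even differences were small. Ccdc124, a ribosome-associated protein, was at 79.2, 81.1 and 93.6 CPM in TL19, TL21 and TL31 and at 57.9 to 70.9 CPM in the mutated lymphomas (-0.41 ± 0.09). Ccdc34 was at 67.3, 53.4 and 54.9 CPM against 28.3 to 48.1 CPM (-0.53 ± 0.14), and Psmd13, a subunit of the proteasome's regulatory particle, was at 185, 200 and 195 CPM against 143 to 174 CPM (-0.30 ± 0.08). In these 3 genes the groups did not overlap, and their thymus means were 67.5, 65.1 and 169 CPM. Syne3, a nuclear envelope protein (-0.89 ± 0.23), Smim11 (-0.58 ± 0.17), Rabl3 (-0.60 ± 0.17) and Atp5k, a subunit of ATP synthase (-0.52 ± 0.15), had overlapping groups.

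3 genes below 5 CPM in both groups, chosen after their values were seen, also had no overlap and an unadjusted p among the smallest. Thsd4, a protein of the extracellular matrix, had a mean of 2.16 CPM in the mutated and 0.055 in the unmutated set, and Magi2, a scaffold protein of membranes, of 2.56 and 0.25 CPM. Cd276, an immune checkpoint ligand, was the reverse, at 0.11 and 2.71 CPM. DESeq2 called all 3 and edgeR none, with adjusted p-values of 0.394, 0.578 and 0.394.

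Genes of Notch signalling, the pathway that Ikaros is known to restrain, had wide and overlapping ranges. Notch1, the receptor, was at 723, 863 and 2258 CPM in TL19, TL21 and TL31 and at 75.9 (TL7) to 3089 CPM (TL2) in the mutated lymphomas, with a log2 difference of 0.09 ± 0.67. Its target Hes1, a transcriptional repressor, was at 63.2, 47.0 and 66.3 CPM against 37.4 to 111 CPM (0.33 ± 0.32). Dtx1, a ubiquitin ligase and target, was at 106, 191 and 785 CPM against 12.2 to 866 CPM (0.36 ± 0.82). Nrarp, a feedback inhibitor (0.08 ± 0.85), Notch3 (-0.33 ± 0.94) and Ptcra, the pre-T-cell receptor alpha chain (-0.48 ± 0.98), had SE values larger than their differences. Of 21 Notch targets in the list used, 17 were tested, 12 were fitted higher and 5 lower, 1 had an unadjusted p under 0.05, and the median log2 difference was 0.33. The median was 0.20 without TL21, 0.21 without TL19 and 0.22 without TL4. On the same 13 lymphomas it was 0.073 with limma-voom, 0.125 on log2(TPM + 1) and 0.086 on log2(TPM + 0.1). In each of these fits 11 were higher and 6 lower. In the fit of all 21 lymphomas with a chromosome 15 term the median was -0.15, where 7 were fitted higher and 10 lower. All 13 lymphomas had Hes1 above the thymus mean of 7.66 CPM.

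Il2ra, the interleukin-2 receptor alpha chain, was at 15.9, 19.8 and 195 CPM in the unmutated lymphomas and at 16.3 (TL15) to 1544 CPM (TL4) in the mutated ones, with a median of 262 and a log2 difference of 2.58 ± 1.42. Of 22 genes known to be repressed by Ikaros, 19 were tested, 12 were fitted higher and 7 lower, with a median of 0.20. This direction was not stable: without TL21 the median was -0.16, with 7 higher and 12 lower, and in the fit of all 21 lymphomas with a chromosome 15 term it was -0.36. It was 0.052 to 0.13 without TL2, TL9, TL10, TL13, TL16 or TL19, each left out alone. The member with the smallest p was Spp1, osteopontin, which was lower in the mutated set: 9.38, 29.2 and 10.4 CPM against 0.61 to 10.9 CPM (-2.10 ± 0.64, unadjusted p = 0.00587). Among 20 partners of Ikaros in chromatin complexes, 5 were fitted higher and 15 lower with a median of -0.076 (-0.048 without TL21), and the 1 with an unadjusted p under 0.05 was Sin3b, a corepressor (-0.27 ± 0.12).

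Of the genes next to Ikzf1 on chromosome 11, 7 of 14 were tested, of which 2 were fitted higher and 5 lower in the mutated set (median -0.33). Without TL21 all 7 were fitted higher, with a median of 0.71, and without TL2, TL4 or TL16 the median was -0.22 to -0.21. Fignl1, a recombination factor, was at 95.9, 140 and 58.6 CPM against 51.3 to 122 CPM (-0.33 ± 0.30). Ddc, dopa decarboxylase, was at 10.2, 78.8 and 19.9 CPM against 0.12 to 161 CPM (-0.36 ± 1.36), and Grb10, a growth factor receptor adaptor and imprinted gene, was at 1.23, 8.20 and 0.13 CPM against 0 to 9.99 CPM (-1.33 ± 1.40). TL7 held the highest mutated value of Ddc, at 161 CPM, and of Grb10, at 9.99 CPM, where the next highest were 35.5 and 0.54 CPM. Without TL7 the log2 differences of Ddc and Grb10 were -1.42 and -3.38.

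Genes that mark mature thymocytes and their exit from the thymus were the list with the largest median difference among lists with more than 10 tested genes. Of 24 members, 22 lie outside chromosome 15, all 22 passed the filter on low counts and all 22 were fitted higher in the mutated set, with a median log2 difference of 1.85 beside -0.001 over all tested genes. 0 passed the threshold in edgeR and 15 had an unadjusted p under 0.05, where 2.69% of all genes had one in that direction, and DESeq2 called 1. The count of 15 fell to 5 without TL21, to 5 without TL31 and to 3 with limma-voom. Summed over the 22 genes, the level was 775 CPM in TL19, 568 in TL21 and 643 in TL31 and 982 (TL15) to 3671 CPM (TL7) in the mutated lymphomas, with a median of 1766 and no overlap. Without TL7 the highest mutated sum was 2179 CPM and the median log2 difference of the list was 1.60.

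Among the members with the smallest p in that list were Bcl2, the survival factor, at 31.7, 9.98 and 13.3 CPM in TL19, TL21 and TL31 and at 20.4 to 96.4 CPM in the mutated set (1.31 ± 0.45), and Gimap6, a GTPase of lymphocyte survival, at 38.6, 24.6 and 49.1 CPM against 25.1 to 471 CPM (1.98 ± 0.70). Cd28, the costimulatory receptor, was at 14.4, 10.8 and 22.5 CPM against 9.11 to 57.8 CPM (1.26 ± 0.44). 4 more members, chosen after their values were seen, show how much TL7 weighed. S1pr1, the receptor that guides thymocytes out, was at 3.33, 0.98 and 0.72 CPM against 0.85 to 78.3 CPM with a mutated median of 5.22. Klf2, the factor that drives S1pr1, was at 28.1, 19.7 and 4.68 CPM against 4.33 to 132 CPM with a median of 49.4. Ccr7, a chemokine receptor of mature thymocytes, was at 5.49, 3.41 and 1.28 CPM against 0.73 to 54.8 CPM. Cd5, an inhibitor of T-cell receptor signals that is highest after selection, was at 29.98, 49.9 and 125 CPM against 73.4 to 278 CPM with a median of 157. TL7 held the highest value of S1pr1, Klf2, Ccr7 and Gimap6, and the lowest mutated value of Bcl2. Without TL7 the log2 difference of S1pr1 was 2.77 in place of 3.44, that of Klf2 1.49 in place of 1.72, that of Ccr7 1.86 in place of 2.29 and that of Gimap6 1.58 in place of 1.98.

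The same list was not low in all unmutated lymphomas. The 7 left-out unmutated lymphomas, whose chromosome 15 is raised, had sums of 416 to 2223 CPM with a median of 1362, TL12 had 930 CPM, and thymus had 2533 to 2918 CPM. In the comparison of the 3 unmutated lymphomas with those 7, 19 of 21 tested members were fitted lower in the 3, with a median log2 difference of -1.01. In the comparison of all 11 mutated with all 10 unmutated lymphomas the median was 0.95. These comparisons share libraries and their values are therefore not independent. Of the 2 members on chromosome 15, given as a description, Il7r was at 170, 187 and 13.3 CPM in TL19, TL21 and TL31 and at 75.2 to 1400 CPM in the mutated set, and Itgb7 was at 29.1, 23.5 and 10.02 CPM against 13.9 to 780 CPM.

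Markers of other cell types were looked at beside these genes. All 11 tested of 12 B cell markers were fitted higher in the mutated set (median 1.72), at sums of 3.31 to 42.3 CPM in the unmutated and 8.15 to 229 CPM in the mutated lymphomas, where TL16 held the highest. Their median was 0.77 without TL16 and 3.39 without TL19. Of 12 natural killer and cytotoxic markers, 8 of 10 tested were fitted higher, with sums of 105 to 484 and 172 to 1434 CPM; their median of 0.92 was 1.88 without TL19, 0.54 without TL21 and 0.45 without TL31. Of 12 dendritic cell markers, 8 were fitted higher and 4 lower, with sums of 73.6 to 152 and 63.1 to 681 CPM, beside 1055 to 1191 CPM in thymus. Their median of 0.51 was 1.57 without TL19 and 0.19 to 0.31 without TL9, TL16, TL21 or TL31. These markers include Ccr9, which is also in the list of double-positive thymocyte markers, so the sums do not measure dendritic cells alone. Of 16 macrophage markers, 13 were fitted lower, with sums of 420 to 1449 CPM, highest in TL19, and 328 to 957 CPM. In this fit their direction rested on TL19: the median was -0.34 with it and 0.62 without it, when 12 of 16 were fitted higher. Their direction also turned with the method: with limma-voom the median was 0.07, with 9 higher and 7 lower, and on log2(TPM + 1) it was -0.18. All 8 erythroid markers tested of 10 were fitted higher (median 1.13, and 0.42 with limma-voom and 0.28 on log2(TPM + 1)). Their sums were 33.0 to 50.5 CPM in the unmutated and 7.10 to 348 CPM in the mutated lymphomas. Of 11 neutrophil markers, 6 of 7 tested were fitted higher (median 1.47, and 0.53 without TL13, 0.93 without TL31 and 2.25 without TL21), with sums of 2.16 to 80.5 and 6.19 to 90.4 CPM. All 3 endothelial markers tested of 10 were fitted higher (median 1.98), with sums of 93.3 to 126 and 105 to 266 CPM. Of 12 fibroblast markers, 10 were fitted higher (median 0.54, and 0.33 without TL31 and 0.36 without TL15), with sums of 1998 to 2334 and 1766 to 2986 CPM. Thymus sums were 2261 to 2442 CPM. This list includes Thy1, which T cells also express, so its sums do not measure fibroblasts alone. Of 12 thymic epithelial markers, 3 of 4 tested were fitted higher, with sums of 8.95 to 25.0 and 8.30 to 47.9 CPM, and the sign of their median turned in several fits without 1 lymphoma. Of these 9 lists, 1 marker, the endothelial Cldn5, was at 0 in all 13 lymphomas. Over all mutated against all unmutated lymphomas, the B cell, natural killer, dendritic, fibroblast and thymic epithelial medians were -0.54, -0.32, -0.20, -0.16 and -0.33. Between the 3 unmutated lymphomas and the 7 left out they were -2.53, -1.07, -1.29, -0.78 and -0.69. The other medians kept their sign over all lymphomas: neutrophil 1.23, erythroid 1.57, endothelial 1.72 and macrophage -0.25. Fewer cells of a type and less RNA per cell cannot be told apart in such bulk libraries, and the part of other cells in the differences was not tested.

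**Figure D4:**
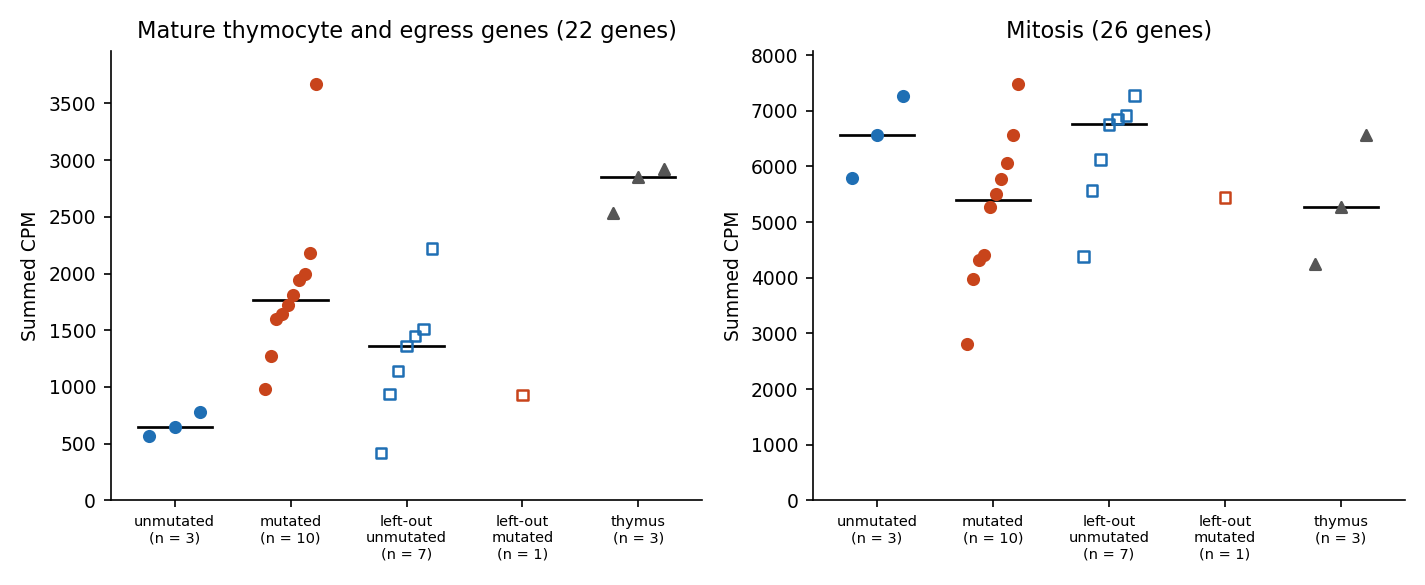
Summed CPM of 22 genes of mature thymocytes and egress (left) and of 26 mitosis genes (right), 1 point per library, with black lines at group medians. The 3 unmutated lymphomas lie at 568 to 775 CPM on the left, below the 982 to 3671 CPM of the mutated ones, while the left-out unmutated lymphomas span 416 to 2223 CPM; on the right the compared groups overlap.

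Cell-cycle genes stood the other way, by small amounts. All 26 mitosis genes were fitted lower in the mutated set, with a median log2 difference of -0.37, and 5 had an unadjusted p under 0.05, where 2.22% of all genes had one in that direction. Birc5, survivin, was at 194, 184 and 235 CPM in TL19, TL21 and TL31 and at 67.1 to 193 CPM in the mutated lymphomas (-0.54 ± 0.23). Cenpe, a kinetochore motor, was at 138, 174 and 176 CPM against 56.4 to 160 CPM (-0.54 ± 0.23), and Ccnb2, a mitotic cyclin, differed by -0.47 ± 0.21. Summed mitosis levels were 5793, 6560 and 7259 CPM in the unmutated lymphomas and 2808 (TL7) to 7481 CPM (TL14) in the mutated ones, so the groups overlapped. Without TL7 the median was -0.30. The count of 5 was 0 without TL9 and 0 without TL31, and 2 without TL10, TL13, TL16, TL17 or TL21. All 33 DNA replication genes were fitted lower too, with a median of -0.18 and none at an unadjusted p under 0.05. Without TL19 that median was -0.003, with 16 higher and 17 lower, and without TL7 it was -0.10.

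T-cell receptor and signalling genes were mostly fitted higher, 21 of 26 tested, with a median of 0.33 and 6 at an unadjusted p under 0.05, a count that ranged from 1 to 9 over 26 alternatives. Cd27, a costimulatory receptor, was at 148, 166 and 178 CPM against 165 to 279 CPM (0.44 ± 0.14). Lcp2, the adaptor SLP-76, was at 110, 122 and 141 CPM against 110 to 325 CPM (0.77 ± 0.25). The summed level of the 28 genes was 6168 to 8381 CPM in the unmutated and 6669 to 9535 CPM in the mutated lymphomas, below the 11641 to 12894 CPM of thymus. Immediate-early genes, which follow receptor signals, had a median of 0.64 with 12 of 14 fitted higher, and of 1.44 with all 14 higher without TL19. Cd69, an early activation marker, was at 11.3, 5.12 and 2.03 CPM against 1.74 to 30.5 CPM (1.69 ± 0.71), and Egr1 was at 57.1, 33.8 and 37.4 CPM against 18.8 to 165 CPM (1.24 ± 0.59). For both, thymus lay above the compared lymphomas, at 103 and 204 CPM.

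Receptor pathways and adhesion genes gave smaller medians in the same direction. Between the 3 unmutated lymphomas and the 7 left out, medians were -0.245 (interleukin-7 pathway), -0.41 (adhesion) and 0.065 (RAS and MAPK). Over all mutated against all unmutated lymphomas they were 0.23, 0.09 and 0.20. Of the interleukin-7 and common gamma chain pathway, 14 of 18 tested genes were fitted higher (median 0.29, and 0.21 without TL7). Jak1, the kinase of these receptors, was at 368, 360 and 328 CPM in TL19, TL21 and TL31. In the mutated set Jak1 was at 334 to 962 CPM, highest in TL7 (0.63 ± 0.24). Of the adhesion genes and integrins, 14 of 18 were fitted higher (median 0.39, and 0.20 without TL31), with Itga4, the alpha 4 integrin, at 55.9, 75.7 and 44.9 CPM against 41.1 to 359 CPM (1.36 ± 0.52). Of the RAS and MAPK regulators, 19 of 23 were fitted higher (median 0.21, and 0.56 without TL19, 0.10 without TL31 and 0.12 without TL2), with Dusp4, a phosphatase of MAP kinases, at 11.2, 7.94 and 4.68 CPM against 5.02 to 73.4 CPM (1.96 ± 0.84).

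Among the transcription factors of the T lineage, Tox, which acts in CD4 lineage development, was at 98.1, 39.3 and 39.7 CPM against 63.4 to 212 CPM (1.18 ± 0.34), and Egr3 at 3.76, 1.25 and 0.69 CPM against 1.501 to 34.9 CPM (2.66 ± 1.06). Bcl11b, a tumour suppressor of the T lineage, was at 504, 252 and 630 CPM against 189 to 569 CPM (-0.39 ± 0.28), and all 13 were below the thymus mean of 979 CPM. Nuclear genes of oxidative phosphorylation were fitted lower in 24 of 26 cases with a median of -0.16, and 4 of them had an unadjusted p under 0.05, a count that was 1 without TL19 and 1 without TL21. Of these, Ndufa4 was at 231, 223 and 190 CPM against 136 to 208 CPM (-0.33 ± 0.13). In the list of glycolysis and hypoxia 21 of 26 were fitted higher, with a median of 0.17 (0.10 without TL31), and Pfkp, a phosphofructokinase, was at 79.5, 108 and 86.7 CPM against 97.8 to 227 CPM (0.72 ± 0.23).

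Tumour suppressors of the p53 and Rb pathways overlapped between the sets. Trp53 was at 301, 318 and 299 CPM against 229 to 339 CPM (-0.06 ± 0.12; interval -0.32 to 0.20). Cdkn2a was at 8.58, 8.53 and 4.65 CPM against 1.06 to 76.0 CPM (1.81 ± 1.11), and Cdkn2b was at most at 1.92 CPM in all 13 (1.69 ± 1.31). Of the p53 targets, 8 of 22 tested were fitted higher and 14 lower (15 and 7 without TL21, 12 and 10 without TL31), with Cdkn1a, the inhibitor p21, at 22.5, 28.8 and 2.91 CPM against 1.38 to 12.2 CPM (-1.48 ± 0.62). Trp53bp1, a DNA break repair factor, had groups that did not overlap, at 67.8, 65.9 and 68.8 CPM against 72.1 to 115 CPM (0.44 ± 0.13), while 17 of the 21 tested genes of double-strand break repair were fitted lower (median -0.12, and -0.042 without TL19 and -0.064 without TL7). Myc, on chromosome 15 and so a description only, was at 300, 322 and 234 CPM in the unmutated and 148 to 477 CPM in the mutated lymphomas.

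The comparison was set beside those that include the left-out lymphomas, with which it shares libraries. All 11 mutated against all 10 unmutated lymphomas gave 315 calls among 11742 genes (2.68%), 127 higher and 188 lower, of which 62 were on chromosome 15 and all of these lower. The 3 unmutated lymphomas against the 7 left out gave 0 calls among 11585 genes outside chromosome 15 (0%), with 655 of these at an unadjusted p under 0.05 and 97 calls with DESeq2. The median log2 difference of chromosome 15, which chose the groups, was 0.014 here, -0.29 in the comparison of all lymphomas and -0.48 between the 3 and the 7 unmutated ones. The median SE of a log2 difference was 0.25 here and 0.17 with all lymphomas. In the simulations the full comparison found 69% of 2-fold changes where this one found 34%.

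Genes then differed in how their values compared. Hivep2 had a log2 difference of 1.35 among all lymphomas (adjusted p = 0.0276), beside 1.28 here and 0.23 between the 3 and the 7 unmutated lymphomas. Ikzf2 had 1.34 (adjusted p = 0.0441), beside 1.28 and 0.20, and Ikzf3 0.84 (adjusted p = 0.0524), beside 0.33 and 0.81. Trib2 had 1.15 (adjusted p = 0.0371), beside 1.03 and 0.30, and Psmd13 -0.42 (adjusted p = 0.0289), beside -0.30 and -0.17. Between the 3 and the 7, Kdm7a differed by -0.14 and Smad3 by -0.07. For Art2b the values were 0.57, 2.43 and -2.11, so its higher level in the mutated set here stood beside a lower level in the 3 unmutated lymphomas than in the 7. In the same order, the values were 0.88, 2.43 and -1.77 for Pde2a, 1.21, 4.27 and -3.47 for Arap2, and 2.525, 4.58 and -2.55 for Inpp4b. They were 0.72, 1.14 and -0.63 for Nedd9, 0.49, 1.11 and -0.77 for Pglyrp2, and 0.56, 1.23 and -0.82 for Cd82.

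Kit, the receptor for stem cell factor and a gene of early progenitors, chosen after its values were seen, was the opposite case. Its log2 difference was -4.55 among all lymphomas (adjusted p = 0.0218), 0.25 ± 0.96 here and -5.24 between the 3 and the 7 unmutated ones (adjusted p = 0.219). It was at 7.65, 0.39 and 0.52 CPM in TL19, TL21 and TL31, at 0.27 to 8.21 CPM in the mutated lymphomas, at 36.4 to 211 CPM in the 7 left-out unmutated ones and at 7.65 ± 1.22 CPM in thymus. No left-out unmutated lymphoma overlapped with any of the 13. TL12, the mutated lymphoma with raised chromosome 15, was fitted below those 7. The mutated minus unmutated log2 difference of Kit was 6.58 ± 2.17 (SE) larger without raised chromosome 15 than with it, where TL12 alone is mutated.

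**Figure D5:**
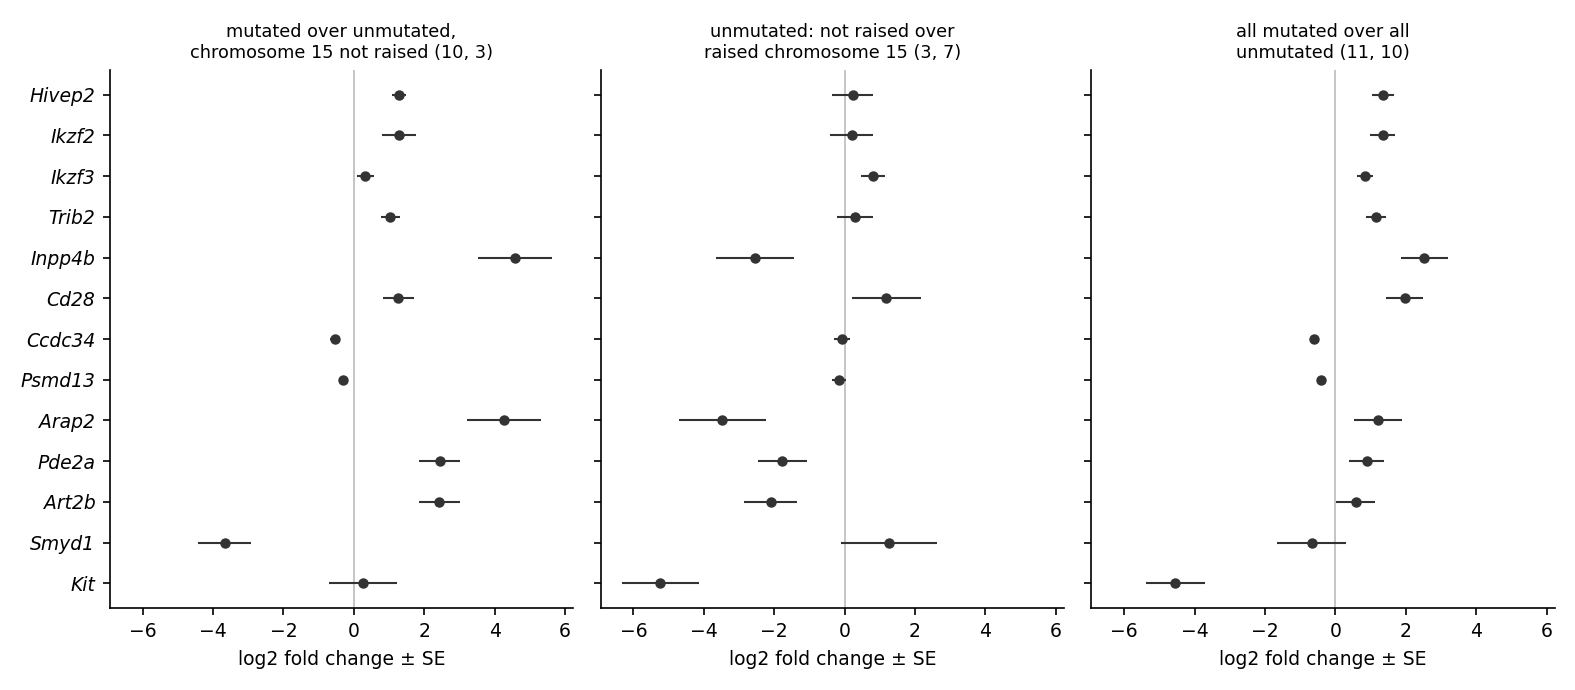
Log2 fold change ± SE of 13 named genes in the comparison described (left; 10 and 3 lymphomas), between unmutated lymphomas without and with raised chromosome 15 (middle; 3 and 7) and between all mutated and all unmutated lymphomas (right; 11 and 10); the comparisons share libraries. Hivep2 and Ikzf2 are near 1.3 on the left and right, Art2b is at 2.43 on the left and -2.11 in the middle, and Kit is near 0 on the left and at -4.55 on the right.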

How the data were processed

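RNA of 21 thymic lymphomas and 3 thymus samples was sequenced. Listed in the submitters' processing notes, with no roles, are the tools HTSeq 0.6.1, HISAT2 2.0.1, cutadapt 1.9.1, edgeR and SAMtools and the build GRCm38.p6; strand and settings are unknown here. Unnormalized whole counts for each symbol and TPM values of the same libraries were deposited by the authors. Fits used R 4.3.3 and edgeR 4.0.16: TMM factors from all 24 libraries, filterByExpr, glmQLFit and glmQLFTest on the 13 lymphomas, Benjamini-Hochberg adjustment over all 12494 tested genes (479 on chromosome 15), threshold 0.05. SE is the log2 difference divided by the root of F. DESeq2 1.42.0, limma 3.58.1, other scalings and filters, TPM with pseudocounts of 1 and 0.1, and fits without each lymphoma were alternatives. On simulated counts with 200 changed genes of 12494, 5.5% of calls were unchanged genes. Chromosome medians used genes of at least 5 CPM in thymus and a pseudocount of 0.5 CPM. Positions of 20902 of 21878 symbols came from RefSeq and GENCODE M21. No pair of the 13 libraries agreed within sampling noise (chi-square per degree of freedom 44.3 to 245.8).

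The members and gene lists were chosen with earlier results of these data known. The text names a set list of 20 genes, in each direction the 12 genes with the smallest p and at least 5 CPM in the higher group (outside chromosome 15, no numbered gene models), and up to 3 genes of a list, besides those said to be chosen after their values were seen; some genes the rule gives are not reported here. A further table, of CPM for lymphomas high or low in Grb10, was not analysed here.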

Additional observations from a re-analysis of the deposited data

Results flagged for a closer look

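Among 73 genes looked at, 10 (13.7%) had 1 mutated lymphoma far from the other 9 by Dixon's criterion. All 10 flags were at the high end. The criterion flags about 1 in 20 groups of normally distributed values, which CPM need not be. Some of the 73 genes were also chosen after their values were seen, so the 13.7% cannot be set against that rate. TL7 held the highest level of 6 genes: Ddc (161 CPM, next 35.5), Grb10 (9.99, next 0.54), Gimap6 (471, next 189), Jak1 (962, next 640), and 2 genes of chromosome 15, Il7r (1400, next 450) and Itgb7 (780, next 171). TL15 was highest for Nqo1 (2.01 CPM, next 1.26), TL2 for Bcl2 (96.4, next 52.7) and Magi2 (6.33, next 3.21), and TL9 for Cd276 (0.41, next 0.16). For Nqo1 and Cd276 the lymphoma that stood apart in the mutated set was still below the highest unmutated one.

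The difference between mutated and unmutated lymphomas was also set against the same difference in the lymphomas with raised chromosome 15, by an interaction term over all 21 lymphomas, an alternative added after the data were seen. There the mutated set is TL12 alone, so the test compares these lymphomas with 1 library that is assumed to vary like the others. Of 13219 genes, 8 passed in edgeR's test. For Hes1, the Notch target, the log2 difference was 8.26 ± 1.10 (SE) larger without raised chromosome 15 (adjusted p = 0.00441): TL12 was at 0.25 CPM, and the other 20 lymphomas were at 28.0 to 111 CPM. For B2m, the light chain of class I MHC, the value was 3.07 (adjusted p = 0.0364), with TL12 at 156 CPM and the others at 442 to 1431. The others of these genes had negative values: Slc18b1 (-10.7), Slc17a8 (-7.97), Dact1 (-5.92), Cyp1b1 (-5.28), Slc25a37 (-1.65) and Satb1 (-1.64). The largest of these values came from low counts. In Slc18b1 TL12 was at 3.87 CPM, inside the 0 to 6.96 CPM of the other lymphomas. In Slc17a8 TL12 was at 12.6 CPM and the others at 0 to 0.49 CPM. In Satb1, a chromatin organiser of thymocytes, TL12 was at 1707 CPM and the others at 425 to 1191 CPM.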

How the results depend on the processing

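The count of 0 genes past the threshold outside chromosome 15 became 26 with DESeq2, 1 with all 24 libraries in 5 groups and 10 in all 21 lymphomas with chromosome 15 as a second term, and ranged from 0 to 1 when each lymphoma was left out; without TL19 the gene was Smyd1 and without TL15 it was Hivep2. It was 0 under the other scalings, filters, robust and voom fits, both TPM fits and without the 5 lymphomas with low proximal chromosome 11. The comparison of the 3 with the 7 unmutated lymphomas gave 0 calls, 97 with DESeq2 and 0 to 1 without 1 of the 3, where leaving out TL19 or TL21 gave the 1. All mutated against all unmutated lymphomas gave 315 calls and 1010 with DESeq2. The cause was not tested.

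Of 1886 gene values under up to 26 alternatives, 1838 kept direction and side of the threshold, 17 were newly past it and 31 changed sign. In the fit of all 21 lymphomas with a chromosome 15 term, log2 differences that changed sign were Ddc 0.060, Notch1 -0.54, Hes1 -0.38, Dtx1 -0.36, Nrarp -0.61, Myc -0.043 and Kit -0.52. With limma-voom Notch1 was -0.12 and Nrarp -0.60, on log2(TPM + 1) they were -0.11 and -0.56, and on log2(TPM + 0.1) -0.11 and -0.67. Without the lymphomas with low proximal chromosome 11 Nrarp was -0.037 and Myc -0.13. Leaving out 1 lymphoma at a time gave ranges across 0 for Fignl1 (-0.60 to 0.012), Ddc (-1.42 to 0.91), Grb10 (-3.38 to 0.91), Notch1 (-0.19 to 0.78), Notch3 (-0.65 to 0.32), Dtx1 (-0.074 to 1.64), Nrarp (-0.33 to 0.23), Ptcra (-0.88 to 0.21), Nqo1 (-3.14 to 0.077), Zfp827 (-5.19 to 1.92) and Kit (-0.26 to 2.87). The median of the mature thymocyte list ranged from 1.53 to 2.26 and that of the mitosis list from -0.45 to -0.25 over 26 alternatives. No paired analysis was possible because the sets share no replicate numbers. The counts of genes whose groups do not overlap, 45 higher and 39 lower, stayed within 1.5 times under 3 other scalings and TPM, alternatives added after the data were seen. With 3 unmutated lymphomas, edgeR found 34% of simulated 2-fold changes.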
